A study of Mus musculus and Rattus norvegicus with 32 samples.

Results

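The nuclear genes for subunits of the mitochondrial respiratory chain were followed through 4 RNA sequencing experiments on the RNA methyltransferase METTL5 in the heart. Members were all genes whose symbols begin with Nduf followed by a, b, c, s or v and a digit, Ndufab1, Sdha to Sdhd, and all symbols that begin with Uqcr, with Cox and a digit from 4 to 8, or with Atp5, and symbols marked -ps were left out. This gave 90 of 55487 genes in the mouse tables (41 of complex I, 4 of complex II, 8 of complex III, 19 of complex IV and 18 of complex V) and 89 of 32883 in the rat table (40, 4, 9, 19 and 17). Of these, 87 mouse and 85 rat genes passed the filter on low counts and were tested.

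Every group had 4 libraries. The mice were C57BL/6, and the groups were whole hearts labelled Ctrl and Mettl5-KO at 1 month (Ctrl_1month, KO_1month), Ctrl and Mettl5-cKO at 3 months (Ctrl_3month, cKO_3month), and Ctrl and Mettl5-cKO at 3 months of age that were collected 4 weeks after transverse aortic constriction, a surgical pressure overload of the left ventricle (Ctrl_TAC, cKO_TAC). In cKO mice exons 2 to 4 of Mettl5 are floxed and the Myh6 promoter drives Cre, so Cre acts in cardiomyocytes, while whole hearts were sequenced. Alleles of the control littermates were not given in the sources used here. The fourth experiment used neonatal rat ventricular myocytes (NRVMs) of Sprague Dawley rats at postnatal day 2, pre-plated to deplete fibroblasts, in which all cells received an adenovirus (AdGFP, or AdMettl5 that carries the human coding sequence) and 20 μM phenylephrine (PE), an adrenergic agonist that makes cardiomyocytes grow, for 24 h. The groups are called AdGFP_PE and AdMettl5_PE.

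The respiratory chain sits in the inner mitochondrial membrane. Complex I (NADH dehydrogenase) and complex II (succinate dehydrogenase) feed electrons into ubiquinone, complex III hands them on to cytochrome c, complex IV (cytochrome c oxidase) passes them to oxygen, and complex V (ATP synthase) uses the proton gradient so made to form ATP. Complexes I, III, IV and V also hold subunits that the mitochondrial genome encodes, whereas the genes followed here lie in the nucleus. Cardiac muscle depends on this pathway for most of its ATP, and several complex IV subunits have a heart and muscle isoform beside a ubiquitous one.

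Total estimated counts per library were 14324700 to 21804907, and the members held 1.53% to 3.32% of them. In NRVMs the totals were 17344430 to 18085339 in AdGFP_PE and 14324700 to 14642431 in AdMettl5_PE. Depth thus differed with the virus, and its part in the NRVM values was not tested. Genes of the mitochondrial genome took 30.6% to 48.1% of the counts in hearts and 9.72% to 12.5% in NRVMs, and library 3 of Ctrl_1month had the highest of these shares and 1.78% of its counts in members. Mettl5 itself, as CPM (a gene's count per 1000000 counts, with library sizes scaled by TMM) over the whole gene, had a mean of 5.12 ± 0.665 (SD, n = 4) in Ctrl_1month and 5.97 ± 0.807 in KO_1month, 7.36 ± 0.554 in Ctrl_3month and 6.51 ± 0.731 in cKO_3month, and 6.75 ± 0.752 in Ctrl_TAC and 6.59 ± 0.764 in cKO_TAC. None of these differences passed the test, with adjusted p of 0.973, 0.884 and 0.874 in edgeR's quasi-likelihood test. Counts of the whole gene do not check the deletion, and for cKO hearts they include exons outside the floxed part. The paper reports that RNA sequencing reads of the floxed exons were nearly absent in its cKO hearts. For the KO mice it refers to earlier reports. Genotypes are given here as the libraries are labelled. In NRVMs rat Mettl5 was 17.0 ± 0.774 CPM in AdGFP_PE and 21.2 ± 1.76 in AdMettl5_PE (adjusted p = 0.00295), and the share of human transcript reads in the latter was not tested.

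The first question was whether subunit genes of the complexes differed between genotypes in unstressed hearts. At 1 month 0 of 87 tested members were called higher or lower at an adjusted p below 0.05 (edgeR's quasi-likelihood test, Benjamini-Hochberg over all genes), where 0% of all 16329 genes were called higher and 0.00612% lower. The median log2 fold change of the members was -0.02, beside -0.01 over all genes. At an unadjusted p below 0.05, 2 members were lower, beside 2.46% of all genes, and DESeq2 called 0. The members were Ndufa2, an accessory subunit of complex I, at -0.29 (SE 0.106, adjusted p = 0.973), and Cox7a2, the ubiquitous isoform of a small complex IV subunit, at -0.25 (SE 0.0949, adjusted p = 0.973). Cox7a2 was the 1 member of 87 whose groups did not overlap, against 3.01% of all genes. The 4 complex II genes had positive log2 fold changes of 0.02 to 0.23, and none of them was called.

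At 3 months 0 of 87 members were called in cKO_3month against Ctrl_3month, where 0.0488% of all 16391 genes were called higher and 0.0244% lower. Their median log2 fold change was -0.07 and 76 of 87 values were negative, while the median over all genes was 0.00. The median moved to -0.02 (50 of 87 negative) without Ctrl_3month library 2 and to -0.16 (81 negative) without cKO_3month library 4. When libraries were scaled by their totals alone, the members' median was -0.02 (56 negative), while the median over all genes moved to 0.05. The groups did not overlap for 1 member, Atp5pb (a peripheral stalk subunit of ATP synthase), against 4.23% of all genes. Cox7a1, the heart and muscle isoform of the complex IV subunit whose ubiquitous form is Cox7a2, was the 1 member below an unadjusted p of 0.05, beside 3.43% of all genes that were lower at that p, and DESeq2 called 0 members. It had 379, 555, 490 and 407 CPM in Ctrl_3month and 305, 321, 318 and 408 CPM in cKO_3month. Only the highest cKO_3month library reached into the range of the controls, and the log2 fold change was -0.44 (SE 0.142, adjusted p = 0.512).

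After TAC the subunit genes were lower in hearts labelled cKO in every complex. Of 87 tested members 46 fell and 0 rose (edgeR's quasi-likelihood test), against 6.1% of all 16340 genes called lower and 6.57% higher. The median log2 fold change was -0.41, beside 0.00 over all genes, and 86 of 87 values were negative. The groups did not overlap for 47 members, against 18.6% of all genes. By complex, 26 of 41 genes fell in complex I, 1 of 4 in complex II, 3 of 8 in complex III, 8 of 17 in complex IV and 8 of 17 in complex V, with medians of -0.45, -0.31, -0.36, -0.42 and -0.36.

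In NRVMs with AdMettl5 the members were lower as well. Of 85 tested members 78 fell and 0 rose, against 25.7% of all 15041 genes called lower and 27.1% higher. The median log2 fold change was -0.45, beside 0.00 over all genes, and the groups did not overlap for 71 members, against 48.4% of all genes. The genes that fell were 36 of 39 in complex I, 4 of 4 in complex II, 9 of 9 in complex III, 13 of 16 in complex IV and 16 of 17 in complex V, with medians of -0.44, -0.45, -0.48, -0.38 and -0.53.

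**Figure D1:**
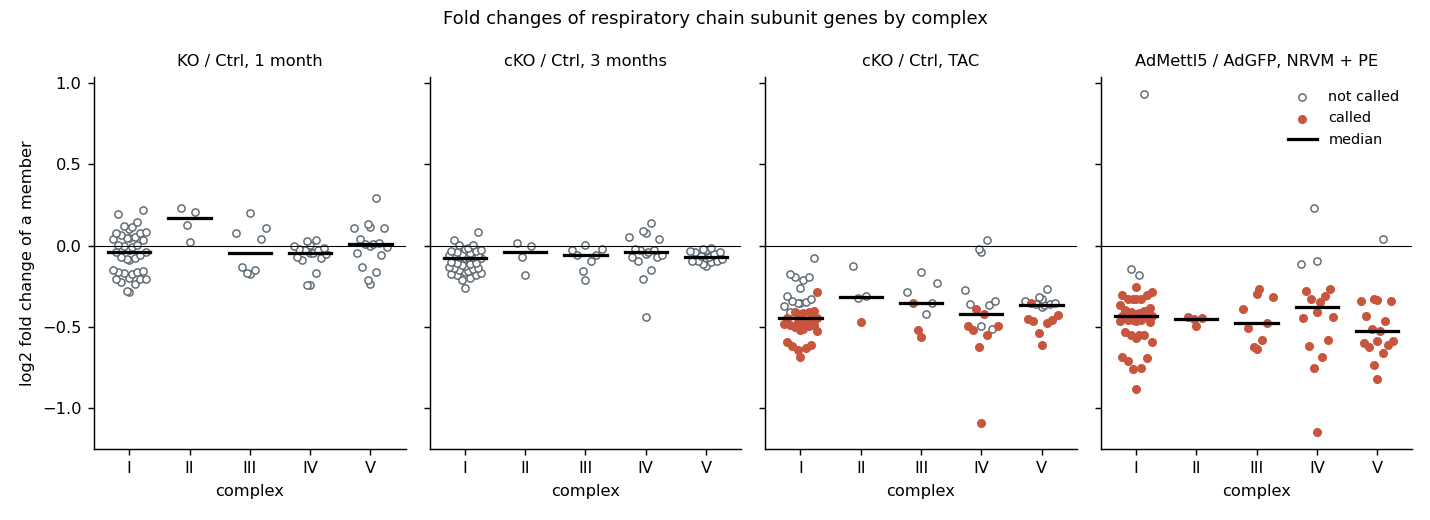
Log2 fold change (y axis) of every tested member by complex (x axis) in the 4 comparisons; filled points were called at an adjusted p below 0.05 and black lines are medians. No point is filled at 1 or 3 months, and after TAC and in NRVMs nearly all points lie below 0, with medians between -0.31 and -0.53.

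Summed over the members of a complex, mean CPM were also lower in cKO_TAC and in AdMettl5_PE. Abundant genes weigh most in such sums, and the order of the complexes differed from that of the medians. Complex I had 9367, 9561, 10043 and 9937 summed CPM in Ctrl_TAC and 6871, 6636, 6413 and 8927 in cKO_TAC. The mean in cKO_TAC was 0.741 of the control mean. The corresponding ratios were 0.784 for complex II, 0.759 for complex III, 0.726 for complex IV and 0.776 for complex V. In complexes I, III, IV and V all cKO_TAC libraries lay below all Ctrl_TAC libraries, and cKO_TAC library 4 was the highest of its group in every complex. For complex II the Ctrl_TAC libraries had 1549, 1537, 1310 and 1577 summed CPM and the cKO_TAC libraries 1068, 1133, 1102 and 1381, and cKO_TAC library 4 overlapped Ctrl_TAC library 3. In NRVMs the ratios of AdMettl5_PE to AdGFP_PE were 0.724, 0.723, 0.723, 0.702 and 0.697 for complexes I to V, and no groups overlapped. At 3 months the ratios were 0.92 to 0.956 and at 1 month 0.969 to 1.09, with overlapping groups. These sums carry no test.

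**Figure D2:**
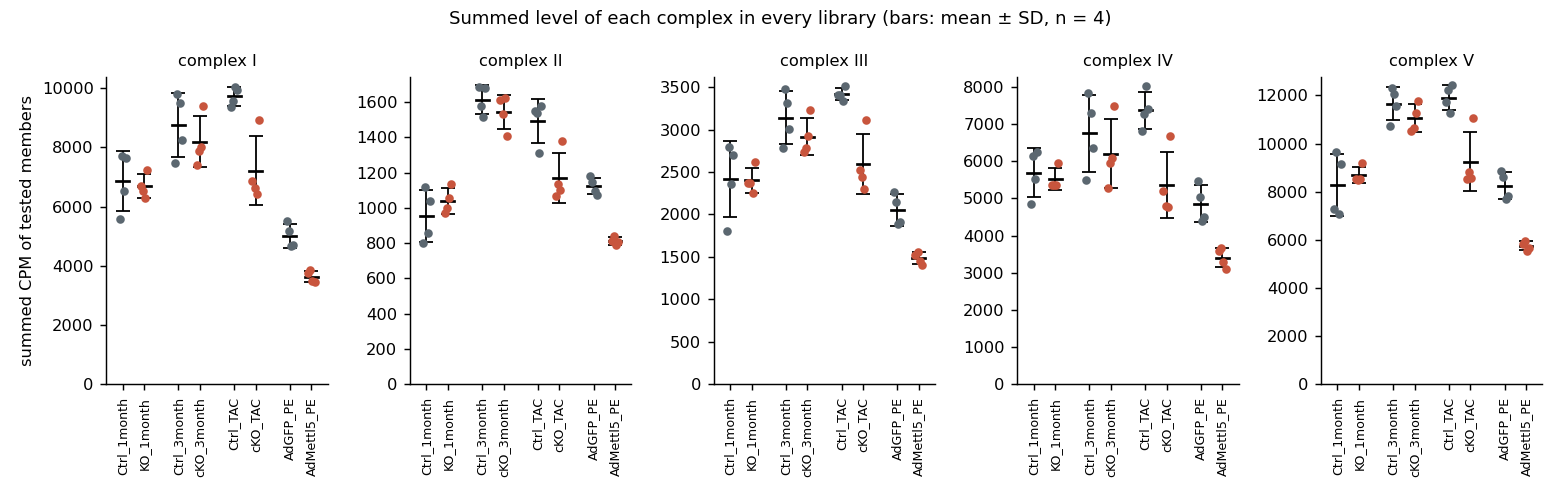
Summed CPM of all members of each complex (y axis, from 0) in every library of the 8 groups (x axis); grey points are Ctrl or AdGFP, red points KO, cKO or AdMettl5, and black bars mean ± SD (n = 4). The cKO_TAC libraries sit below the Ctrl_TAC libraries in every complex but complex II, with library 4 nearest to the controls, and the NRVM groups are apart in all of them.

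Complex I is built around 7 nuclear-encoded core subunits that carry the flavin and the iron-sulfur clusters. All other Nduf genes are counted here as accessory, and most of them code for accessory subunits. They include Ndufa4 and, in mouse, the processed pseudogenes Ndufs6b, Ndufa11b and Ndufb4c. After TAC 3 of the 7 core genes and 23 of 34 accessory genes fell. Among the core genes, Ndufs7, which holds the last iron-sulfur cluster before ubiquinone, had 303, 305, 386 and 339 CPM in Ctrl_TAC and 204, 196, 184 and 288 CPM in cKO_TAC. The groups did not overlap, and the log2 fold change was -0.61 (SE 0.149, adjusted p = 0.0303, edgeR's quasi-likelihood test). Ndufs8, another iron-sulfur subunit of that arm, fell by 0.48 on the log2 scale (SE 0.122, adjusted p = 0.0337), and Ndufv2, an iron-sulfur subunit of the NADH-oxidising module, fell by 0.40 (SE 0.1, adjusted p = 0.0328). The core genes Ndufs1, Ndufs3 and Ndufv1 had log2 fold changes of -0.35 to -0.33 and were not called.

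Of the accessory genes, Ndufs4, which stabilises the NADH-oxidising module, had 124, 126, 128 and 131 CPM in Ctrl_TAC and 79.9, 81.8, 83.5 and 108 CPM in cKO_TAC. All cKO_TAC libraries were below all controls, and library 4 stood apart from the other three (log2 fold change -0.53, SE 0.101, adjusted p = 0.0154). Ndufa3 (ENSMUSG00000035674, GRCm38 chromosome 7, 3617373 to 3620327, plus strand), a membrane arm subunit, had 266, 264, 315 and 274 CPM in Ctrl_TAC and 174, 168, 156 and 223 CPM in cKO_TAC. Its log2 fold change was -0.63 (SE 0.118, adjusted p = 0.0145), and it overlaps Tfpt on the other strand, whose reads could not be told apart without strand. The lowest fold change in complex I was that of Ndufs6b at -0.68 (SE 0.129, adjusted p = 0.0148), a gene at a mean of only 9.17 CPM in Ctrl_TAC that the annotation lists as a processed pseudogene, so its counts may include reads of Ndufs6. Ndufa4l2, a paralog of Ndufa4, had the highest fold change at -0.08 (adjusted p = 0.801). Ndufa4 is counted here by its symbol, although its protein is known as a subunit of complex IV, and it fell by 0.45 (SE 0.105, adjusted p = 0.0276).

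In NRVMs 6 of 7 core genes and 30 of 32 accessory genes of complex I fell. Ndufv2 had 201, 195, 177 and 171 CPM in AdGFP_PE and 109, 118, 99.5 and 112 CPM in AdMettl5_PE (log2 fold change -0.76, SE 0.0648, adjusted p = 1.62e-06). Ndufs7, which had one of the lower core values after TAC, had 105, 92.8, 87.4 and 93.4 CPM in AdGFP_PE and 89.5, 89.3, 73.6 and 81.6 CPM in AdMettl5_PE. Its groups overlapped, and the value of -0.18 (SE 0.0726, adjusted p = 0.0514) was not called. Ndufb10, a membrane arm subunit, had 146, 133, 117 and 122 CPM in AdGFP_PE and 76.9, 66.3, 64.9 and 72.1 CPM in AdMettl5_PE. It was the lowest in complex I at -0.89 (SE 0.0749, adjusted p = 1.57e-06). Ndufb4, also of the membrane arm, fell by 0.69 (SE 0.0548, adjusted p = 9.33e-07).

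The highest rat value, 0.93 (SE 0.516, adjusted p = 0.149), belonged to one of 2 rows named Ndufa10l1 and rested on 1 library. That row had 7.83, 6.8, 7.12 and 8.14 CPM in AdGFP_PE and 5.94, 37.1, 7.88 and 6.42 CPM in AdMettl5_PE. The other Ndufa10l1 row had 134 ± 8.15 and 112 ± 4.6 CPM and fell by 0.26 (adjusted p = 0.0014). Ndufa4l2 had at most 10 counts in any NRVM library and was not tested.

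Complex II is made of the flavoprotein Sdha, the iron-sulfur protein Sdhb and the membrane anchors Sdhc and Sdhd, all encoded in the nucleus. Sdhb (GRCm38 chromosome 4, 140961203 to 140979193, plus strand) had 565, 562, 564 and 589 CPM in Ctrl_TAC and 389, 377, 363 and 516 CPM in cKO_TAC. The groups did not overlap, and Sdhb was the 1 gene of the complex called lower with all libraries after TAC, at -0.47 (SE 0.114, adjusted p = 0.0302, edgeR's quasi-likelihood test). This call was seen in 1 of the 8 fits that leave out 1 library, in which Sdhc was called in 2 and Sdha in 1. Sdha had 547, 548, 411 and 554 CPM in Ctrl_TAC, where library 3 stood below the others, and 353, 414, 390 and 490 CPM in cKO_TAC. The groups overlapped and the value of -0.32 (SE 0.13, adjusted p = 0.125) was not called. Sdhc at -0.31 (adjusted p = 0.0701) and Sdhd at -0.13 (adjusted p = 0.525) were not called either.

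All 4 complex II genes fell in NRVMs, within a narrow range of -0.50 to -0.44. Sdha had 481, 468, 459 and 450 CPM in AdGFP_PE and 324, 340, 322 and 331 CPM in AdMettl5_PE (log2 fold change -0.50, SE 0.0423, adjusted p = 1.65e-06). Sdhd fell by 0.45 (SE 0.0438, adjusted p = 5.11e-06), Sdhc by 0.45 (SE 0.0482, adjusted p = 9.76e-06) and Sdhb by 0.44 (SE 0.0592, adjusted p = 6.15e-05).

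In complex III the core proteins Uqcrc1 and Uqcrc2 and the Rieske iron-sulfur protein Uqcrfs1 are joined by small subunits. After TAC, Uqcrc1 (GRCm38 chromosome 9, 108936633 to 108949623, plus strand) had 883, 882, 888 and 929 CPM in Ctrl_TAC and 571, 570, 505 and 775 CPM in cKO_TAC. The groups did not overlap, and Uqcrc1 was the lowest of the complex at -0.57 (SE 0.126, adjusted p = 0.0231). The small subunits Uqcrq (-0.52, SE 0.125, adjusted p = 0.0289) and Uqcrb (-0.36, SE 0.0817, adjusted p = 0.0256) also fell. Uqcr10 had the highest value, -0.16 (adjusted p = 0.343), and overlapping groups.

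In NRVMs all 9 complex III genes fell. Uqcrc1 had 369, 354, 324 and 356 CPM in AdGFP_PE and 243, 231, 223 and 240 CPM in AdMettl5_PE (log2 fold change -0.58, SE 0.0507, adjusted p = 2.09e-06). The lowest was Uqcr11, a small subunit, at -0.64 (SE 0.0891, adjusted p = 8.24e-05). Uqcrc2 fell by 0.48 (adjusted p = 3.46e-05) and Uqcrfs1 by 0.39 (adjusted p = 3.83e-05). Uqcrq was the closest to 0 at -0.27 (SE 0.0997, adjusted p = 0.0411), with overlapping groups, and the call was lost without AdGFP_PE library 1 or 2 or AdMettl5_PE library 3 or 4, with values of -0.26 to -0.17.

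Complex IV held the members that moved most in both experiments, and in each it was a heart and muscle isoform. Cox7a1 (ENSMUSG00000074218, GRCm38 chromosome 7, 30184144 to 30186078, plus strand) had 446, 430, 511 and 503 CPM in Ctrl_TAC and 209, 190, 172 and 315 CPM in cKO_TAC. The highest cKO_TAC library was below the lowest Ctrl_TAC library, and the log2 fold change was -1.09 (SE 0.176, adjusted p = 0.00994, edgeR's quasi-likelihood test). It was the 1 member past a log2 fold change of 1 after TAC and was called in all 8 fits that leave out 1 library, with values from -1.30 to -0.99.

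Cox6a2 (ENSMUSG00000030785, GRCm38 chromosome 7, 128205435 to 128206387, minus strand) is the muscle isoform of another small subunit. Per length of all annotated exons, Cox6a2 was the most abundant complex IV gene of the heart, at 2969 CPM per kilobase in Ctrl_TAC. It overlaps Itgad on the other strand, and reads of the latter could not be told apart without strand. It had 1812, 2050, 2275 and 1940 CPM in Ctrl_TAC and 1374, 1199, 1214 and 1720 CPM in cKO_TAC, without overlap, and fell by 0.55 (SE 0.132, adjusted p = 0.029). It was called in 2 of the 8 fits that leave out 1 library. Cox8b, the muscle isoform of yet another small subunit, had 394, 417, 535 and 444 CPM in Ctrl_TAC and 303, 271, 271 and 411 CPM in cKO_TAC, where library 4 overlapped the controls. Its value of -0.51 (SE 0.152, adjusted p = 0.0549) was just short of a call.

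The ubiquitous isoforms of these subunits differed less or not detectably. Cox7a2 fell by 0.42 (SE 0.117, adjusted p = 0.0444). Cox6a1 had 58.2, 52.7, 69.3 and 63.2 CPM in Ctrl_TAC and 63.0, 53.6, 54.2 and 66.1 CPM in cKO_TAC (log2 fold change -0.04, SE 0.106, adjusted p = 0.841), and Cox8a had 99.9 ± 9.1 and 98.5 ± 8.25 CPM (-0.02, SE 0.0899, adjusted p = 0.91). Cox7a2l, which joins complexes III and IV into supercomplexes, was the 1 member with a positive value after TAC at 0.03 (SE 0.066, adjusted p = 0.767). When libraries were scaled by their totals alone, the median of all genes moved to 0.14 and that of the members to -0.28, and Cox6a1, Cox8a and Cox7a2l moved with it to values of 0.10 to 0.18.

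Other complex IV genes that fell after TAC were Cox6c (-0.50, SE 0.104, adjusted p = 0.0194) and Cox6c2 (-0.50, SE 0.097, adjusted p = 0.0162). Cox6c2 is annotated as a processed pseudogene and may share reads with Cox6c. Cox4i2, a low-abundance isoform linked to low oxygen, was at 8.9 ± 1.02 CPM in Ctrl_TAC and 5.79 ± 1.53 in cKO_TAC and fell by 0.62 (SE 0.17, adjusted p = 0.0421), with library 4 of cKO_TAC inside the range of the controls, while its paralog Cox4i1 at -0.37 (adjusted p = 0.1) was not called. Cox7b2 and Cox8c were at or near 0 counts and were not tested in either species.

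In NRVMs Cox6a2 had 1465, 1313, 1149 and 1203 CPM in AdGFP_PE and 640, 644, 545 and 485 CPM in AdMettl5_PE. It was the lowest of all rat members at -1.15 (SE 0.0983, adjusted p = 1.72e-06) and the 1 member past a log2 fold change of 1. Its ubiquitous paralog Cox6a1 had 624, 573, 495 and 505 CPM in AdGFP_PE and 542, 562, 498 and 454 CPM in AdMettl5_PE, with overlapping groups, and was not called (-0.10, SE 0.0833, adjusted p = 0.357). Cox7a1 had at most 17 counts in an NRVM library and was not tested, so the muscle isoform that moved most in adult hearts could not be followed in these neonatal cells.

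Cox7b, a small complex IV subunit, fell by 0.69 in NRVMs (SE 0.0832, adjusted p = 2.76e-05), and Cox7c fell by 0.45 (SE 0.0601, adjusted p = 6.26e-05). Cox8a fell by 0.28 (SE 0.0791, adjusted p = 0.0104) and Cox8b by 0.27 (SE 0.0937, adjusted p = 0.0298), and the groups of both overlapped. Cox4i2, at 4.05 ± 0.997 CPM in AdGFP_PE and 4.76 ± 0.662 in AdMettl5_PE, had the highest value of the complex at 0.23 (adjusted p = 0.273). The 3 tested complex IV genes that were not called were Cox6a1, Cox4i2 and Cox7a2l.

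Ratios of 2 isoforms within a library do not depend on how libraries are scaled. The log2 ratio of Cox7a1 to Cox7a2 was 1.09, 1.05, 1.15 and 1.18 in Ctrl_TAC and 0.50, 0.42, 0.15 and 0.62 in cKO_TAC, a difference of -0.69. At 3 months it was 1.37, 1.23, 1.13 and 1.19 in Ctrl_3month and 0.89, 0.85, 0.76 and 0.76 in cKO_3month, a difference of -0.41. In both experiments all cKO libraries lay below all controls, also at 3 months, where no single member was called.

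The ratio of Cox6a2 to Cox6a1 was 4.96, 5.28, 5.04 and 4.94 in Ctrl_TAC and 4.45, 4.48, 4.48 and 4.70 in cKO_TAC, a difference of -0.53. At 3 months the difference was -0.25, from 5.17 ± 0.0416 to 4.91 ± 0.0632 (SD, n = 4), again without overlap. In NRVMs the ratio went from 1.22 ± 0.023 to 0.17 ± 0.0653, a difference of -1.06. The ratio of Cox8b to Cox8a differed by -0.51 after TAC without overlap, by -0.12 at 3 months (exact permutation p = 0.171) and by 0.01 in NRVMs (exact permutation p = 0.943).

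Each of these 6 ratios without overlap had an exact two-sided permutation p of 0.0286, the smallest that 4 against 4 libraries can give, and 0.0858 after Benjamini-Hochberg adjustment over the 18 ratios computed. The ratios therefore did not pass the threshold once the number of ratios was taken into account. At 1 month the 3 differences were -0.04, 0.08 and 0.03 (exact permutation p = 0.743, 0.943 and 0.886), and library 1 of Ctrl_1month stood apart with a ratio of Cox7a1 to Cox7a2 of -0.31.

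**Figure D3:**
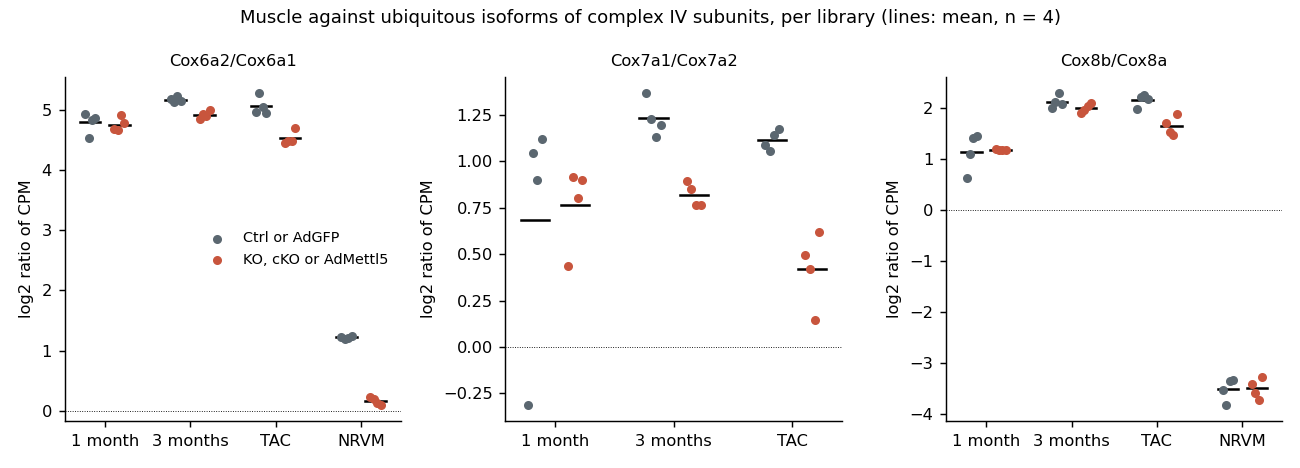
Log2 ratio of CPM (y axis) of the muscle to the ubiquitous isoform of 3 complex IV subunits in every library, by comparison (x axis); grey points are Ctrl or AdGFP, red points KO, cKO or AdMettl5, and lines are means (n = 4). The Cox6a2 to Cox6a1 ratio is lower without overlap at 3 months, after TAC and in NRVMs, and the ratio of Cox7a1 to Cox7a2 at 3 months and after TAC.

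Promoter sequences of muscle and ubiquitous isoforms are shown because some ratios of these paralogs did not overlap between groups. None of the ratios passed the threshold after adjustment. RefSeq (GRCm38.p6) gave a window of 250 bases before to 50 after the start for 69 of the member genes. The 4 motifs searched are known from nuclear genes of the respiratory chain and were looked for on both strands, namely NRF1 (GCATGCGC), GABP (CCGGAAG), ERR (AAGGTCA) and YY1 (AAGATGGC). GABP ends in the letters AAG with which ERR and YY1 begin, so these matches can overlap, and the NRF1 letters can match both strands of one palindromic site. They were found in 14.5%, 24.6%, 11.6% and 14.5% of the 69 member genes, beside 3.05%, 9.93%, 5.38% and 3.19% of all 27025 genes and 2.71%, 8.86%, 4.72% and 2.75% of all 32851 promoters. Capitals mark matches in the windows below, which hold the muscle isoforms Cox7a1 and Cox8b, their ubiquitous partners Cox7a2 and Cox8a, the ubiquitous isoform Cox6a1 without its partner Cox6a2, and for comparison Atp5k, a small ATP synthase subunit with matches to 3 of the motifs.
Cox7a1, muscle isoform, chr7:30183921-30184220 (+): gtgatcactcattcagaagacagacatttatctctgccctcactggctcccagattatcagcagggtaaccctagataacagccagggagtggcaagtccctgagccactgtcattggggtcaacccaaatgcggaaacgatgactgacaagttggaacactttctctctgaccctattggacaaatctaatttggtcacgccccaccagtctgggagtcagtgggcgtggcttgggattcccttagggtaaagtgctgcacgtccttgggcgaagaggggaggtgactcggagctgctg
Cox7a2, ubiquitous isoform, chr9:79759804-79760103 (-): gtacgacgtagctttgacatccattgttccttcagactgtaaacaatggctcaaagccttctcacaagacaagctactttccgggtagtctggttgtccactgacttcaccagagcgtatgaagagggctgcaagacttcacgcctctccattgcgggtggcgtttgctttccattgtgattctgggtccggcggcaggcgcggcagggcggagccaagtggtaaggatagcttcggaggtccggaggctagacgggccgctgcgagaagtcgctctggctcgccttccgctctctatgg
Cox8b, muscle isoform, chr7:140900397-140900696 (-): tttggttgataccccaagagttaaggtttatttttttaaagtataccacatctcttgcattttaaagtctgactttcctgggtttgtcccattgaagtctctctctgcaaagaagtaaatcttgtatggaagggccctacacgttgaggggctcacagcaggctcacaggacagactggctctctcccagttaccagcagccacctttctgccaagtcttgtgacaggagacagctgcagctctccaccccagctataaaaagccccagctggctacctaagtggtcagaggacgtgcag
Cox6a1, ubiquitous isoform, chr5:115348909-115349208 (-): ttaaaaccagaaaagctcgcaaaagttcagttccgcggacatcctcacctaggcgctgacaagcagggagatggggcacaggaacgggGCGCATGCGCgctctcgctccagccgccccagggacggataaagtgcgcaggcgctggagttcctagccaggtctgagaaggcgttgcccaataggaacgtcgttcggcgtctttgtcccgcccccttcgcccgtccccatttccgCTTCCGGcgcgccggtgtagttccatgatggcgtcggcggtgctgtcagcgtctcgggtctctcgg
Cox8a, ubiquitous isoform, chr19:7217567-7217866 (-): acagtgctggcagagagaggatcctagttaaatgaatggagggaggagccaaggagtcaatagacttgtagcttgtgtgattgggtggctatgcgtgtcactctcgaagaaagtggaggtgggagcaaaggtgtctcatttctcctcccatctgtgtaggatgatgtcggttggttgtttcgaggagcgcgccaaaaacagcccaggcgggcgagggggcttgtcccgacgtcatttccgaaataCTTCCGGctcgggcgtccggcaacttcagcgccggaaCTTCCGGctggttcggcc
Atp5k, small subunit of complex V, chr5:108434350-108434649 (-): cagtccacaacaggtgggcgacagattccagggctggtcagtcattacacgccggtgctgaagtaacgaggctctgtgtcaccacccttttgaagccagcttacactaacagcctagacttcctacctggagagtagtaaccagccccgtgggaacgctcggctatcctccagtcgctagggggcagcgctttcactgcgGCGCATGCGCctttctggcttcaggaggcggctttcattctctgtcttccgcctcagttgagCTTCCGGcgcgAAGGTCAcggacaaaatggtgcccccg
The windows of Cox7a1, Cox7a2 and Cox8b held none of the 4 motifs, that of Cox6a1 held NRF1 and GABP letters and that of Cox8a held GABP letters at 2 places. A match describes letters only, and its absence says only that these letters are not in this window.

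Complex V consists of the catalytic F1 head and a membrane part with its stalks. After TAC 2 of 5 genes of the F1 head and 6 of 12 other genes fell. Atp5e (GRCm38 chromosome 2, 174461072 to 174464105, minus strand), the epsilon subunit of the head, had 190, 209, 253 and 226 CPM in Ctrl_TAC and 138, 127, 129 and 180 CPM in cKO_TAC. The groups did not overlap, and Atp5e was the lowest at -0.61 (SE 0.132, adjusted p = 0.0208, edgeR's quasi-likelihood test). The stalk subunit Atp5h had 507, 516, 563 and 523 CPM in Ctrl_TAC and 379, 347, 357 and 455 CPM in cKO_TAC, and fell by 0.46 (SE 0.0979, adjusted p = 0.0206). Atp5j, the coupling factor F6, fell by 0.43 (SE 0.0967, adjusted p = 0.0242). Atp5a1, the alpha subunit of the head, was closest to 0 at -0.27 (SE 0.124, adjusted p = 0.176).

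In NRVMs all 5 genes of the F1 head and 11 of 12 other complex V genes fell. The catalytic beta subunit Atp5f1b, the rat name of Atp5b, had 2957, 2955, 2617 and 2718 CPM in AdGFP_PE and 1748, 1800, 1724 and 1848 CPM in AdMettl5_PE (log2 fold change -0.66, SE 0.0558, adjusted p = 1.57e-06). Atp5pf, the rat name of Atp5j, had 234, 220, 202 and 190 CPM in AdGFP_PE and 121, 132, 113 and 111 CPM in AdMettl5_PE and was the lowest at -0.82 (SE 0.0717, adjusted p = 1.96e-06). Atp5mc2, a subunit of the rotating membrane ring, fell by 0.59 (SE 0.0492, adjusted p = 1.41e-06). The exception was Atp5if1, which is no structural subunit but the inhibitor of the enzyme, with 187, 188, 161 and 164 CPM in AdGFP_PE and 193, 195, 170 and 161 CPM in AdMettl5_PE (0.04, SE 0.0741, adjusted p = 0.687). Scaled by library totals alone, the median of all rat genes moved to 0.13 and that of the members to -0.31. Atp5if1 was then called higher at 0.18 (adjusted p = 0.0268, edgeR's quasi-likelihood test), as were 39.0% of all 15041 genes.

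The count of calls after TAC changed with single libraries. Leaving out 1 library at a time gave 1 to 26 members lower in 7 of the 8 fits, with 26 without Ctrl_TAC library 1, 7 without library 2, 13 without library 3 and 3 without library 4, and 8, 1 and 7 without cKO_TAC libraries 1, 2 and 3. All genes called lower were 4.41%, 1.73%, 2.67% and 1.13% in the first 4 of these fits and 2.51%, 1.23% and 2.67% in the others, so that the 1 of 87 without cKO_TAC library 2 was at the background. Without cKO_TAC library 4 the count rose to 75, of which 37 were of complex I, 3 of complex II, 6 of complex III, 13 of complex IV and 16 of complex V, and the members' median moved to -0.52, beside 11.6% of all genes called lower. Of the genes described above, Cox7a1 was called in all 8 of these fits, Ndufa3 in 7, Ndufs4 in 6, and Ndufs7, Uqcrc1 and Atp5e in 2 each. DESeq2 called 66 lower, beside 7.85% of all genes. In NRVMs the same step left 74 to 79 members lower, beside 22.5% to 24.7% of all genes.

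**Figure D4:**
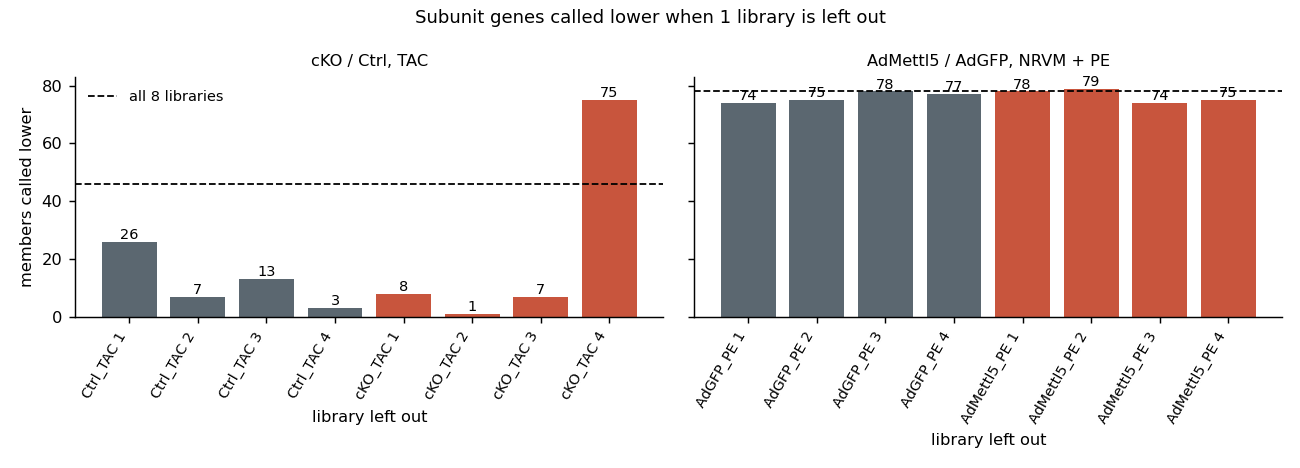
Number of members called lower (y axis, from 0) when the library named on the x axis is left out, after TAC (left) and in NRVMs (right); dashed lines are the counts with all 8 libraries, 46 and 78. After TAC the bars range from 1 to 75, with the highest when cKO_TAC library 4 is left out, and in NRVMs from 74 to 79.

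Markers of cell types moved in the same libraries. After TAC 7 of 9 fibroblast markers rose and 0 fell, with a median log2 fold change of 0.84, and their summed level was 617 to 808 CPM in Ctrl_TAC and 3037, 2104, 2053 and 969 CPM in cKO_TAC. Library 4, whose subunit genes were nearest to the controls, thus also had the lowest fibroblast sum of its group. Of 13 cardiomyocyte markers 3 fell and 0 rose (median -0.16), with sums of 51642 to 57167 CPM in Ctrl_TAC and 40430 to 50374 in cKO_TAC, and 5 of 8 endothelial markers fell (median -0.49, 708 to 843 against 503 to 639 CPM). Macrophage markers rose for 2 of 8 (median 0.38, 160 to 208 against 208 to 276 CPM), and 0 of 6 markers of smooth muscle and pericytes were called. Beside these counts, 6.1% of all genes were called lower and 6.57% higher. In bulk samples fewer cells of a type and less RNA per cell cannot be told apart, and the part of cell type proportions in the subunit values was not tested.

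In NRVMs all 12 tested cardiomyocyte markers fell with a median of -1.17, and their sum was 35914 to 45232 CPM in AdGFP_PE and 15903 to 17715 in AdMettl5_PE. This median was further from 0 than that of the subunit genes in any complex. Of 8 fibroblast markers 7 fell (median -0.39, 11558 to 12176 against 9133 to 10063 CPM). Of 6 endothelial markers Kdr alone rose (45 to 48 against 57 to 62 CPM in sum), and 2 of 5 macrophage markers fell (63 to 76 against 52 to 65 CPM). Of 6 markers of smooth muscle and pericytes 2 rose and 1 fell. The shares over all genes were 25.7% lower and 27.1% higher. The counts in the small endothelial, macrophage and smooth muscle lists are therefore not read as changes of those cells. Among the defining macrophage markers, Cd163 had 0 counts and C1qa and C1qb at most 11 and 8. The part of these cells in the subunit values was not tested. In unstressed hearts 0 of 13 cardiomyocyte markers were called, and the 9 fibroblast markers had a median of 0.49 at 3 months and 0.31 at 1 month with 0 called. The 8 endothelial markers were all negative at both ages, with medians of -0.38 at 3 months and -0.26 at 1 month, and the 8 macrophage markers had medians of 0.39 at 3 months, where all were positive, and 0.03 at 1 month. None of these was called, and their part in the isoform ratios at 3 months was not tested.

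Whether the genotype difference after TAC differed from that at 3 months was tested by an interaction term over the 4 groups. All 87 differences were negative, with a median of -0.32, but 0 members were called in edgeR's quasi-likelihood test, which called 0.00586% of 17070 genes higher and 0% lower. DESeq2 also called 0 members, and 0.875% of 18632 genes higher and 0.365% lower. At an unadjusted p below 0.05, 19 members were lower, 9 of complex I, 2 of complex III, 3 of complex IV and 5 of complex V, beside 5.17% of all genes. The smallest p was that of Cox7a1, with a difference of -0.64 (SE 0.234, adjusted p = 0.288). Without cKO_TAC library 4, 8 members were called lower, beside 1.77% of all 17353 genes.

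For 75 genes a mouse and a rat member could be paired by symbol or RefSeq synonym. Of these, 73 were negative both after TAC and in NRVMs, 39 were called after TAC and 70 in NRVMs, although the libraries compared were labelled as loss of Mettl5 in one and as gain in the other. The sizes were hardly related across genes, with a Pearson r of 0.14 and a Spearman rho of 0.06 over 75 genes, which share libraries and scaling within each experiment. Ndufs7 and Ndufb10, for example, fell by 0.61 and 0.41 after TAC, and their values in NRVMs were -0.18 and -0.89. The 2 pairs that were not negative in both were Cox4i2, at 0.23 in NRVMs, and Cox7a2l, at 0.03 after TAC.

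**Figure D5:**
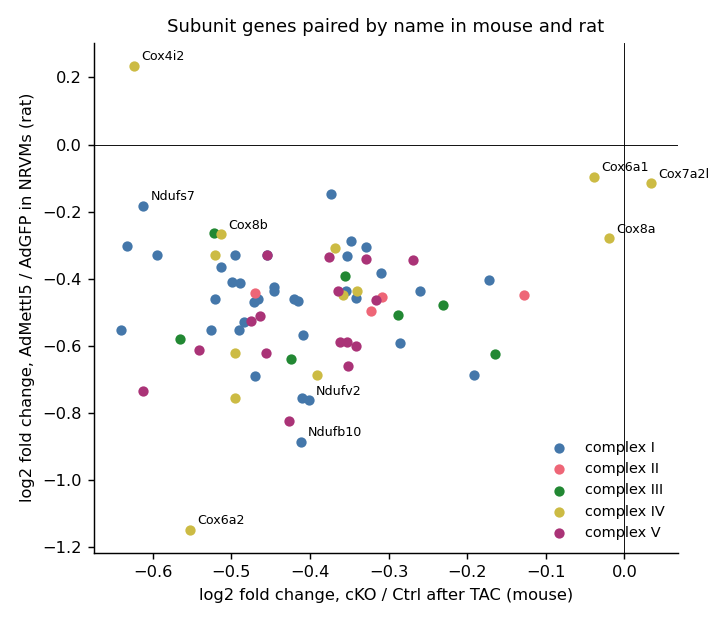
Log2 fold change of 75 paired subunit genes after TAC (x axis, cKO_TAC against Ctrl_TAC) and in NRVMs (y axis, AdMettl5_PE against AdGFP_PE), coloured by complex. Most points, 73, lie in the lower left, with Cox6a2 lowest in rat at -1.15 and Cox4i2 above 0 in rat only; Cox7a1 is absent since it was not tested in NRVMs.

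Other genes of the pathway were counted in fixed lists. A list of 15 genes outside the member rule held electron carrier proteins and also Coq and Pdss genes, which serve ubiquinone synthesis. Of these 15, 2 fell after TAC (median -0.30) and 12 in NRVMs (median -0.45), and 0 rose. For this and the following lists the shares over all genes were 6.1% lower and 6.57% higher after TAC and 25.7% lower and 27.1% higher in NRVMs. Etfb, a subunit of the electron transfer flavoprotein, was among them in both, at -0.84 (SE 0.162, adjusted p = 0.0155) after TAC and -1.04 (SE 0.0677, adjusted p = 1.93e-07) in NRVMs. Of the assembly factors of the complexes 5 of 47 fell and 1 rose after TAC (median -0.17), and 23 of 43 fell and 3 rose in NRVMs (median -0.25). Of the 13 subunits that the mitochondrial genome encodes, 1 fell after TAC (mt-Nd3 at -0.58, adjusted p = 0.0139, median of the list -0.15), and 0 of 12 were called in NRVMs (median 0.00), where 78 nuclear members fell. Of genes for mitochondrial membrane and import proteins 1 of 20 fell after TAC (median -0.12), and 6 of 18 fell and 4 rose in NRVMs (median -0.10), which is near the shares over all genes. At 1 and 3 months 0 genes of these lists were called.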

How the data were processed

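Estimated counts per gene were taken as the authors deposited them, in 3 mouse tables and 1 rat table. Per the submitters' processing notes and the study's methods, the authors aligned reads with HISAT2 2.0.4 to GRCm38 or Rnor_6.0, made the estimated counts with StringTie 2.1.4, and DESeq2 1.4.5 is also listed. Strandedness is not given in the sources used here. All values were whole numbers, so rounding changed nothing; the plan had assumed plain counts. Columns at 1 month were matched to samples and all others to their group, so library numbers there are names only.

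The 4 tables were analysed separately with edgeR 4.0.16 under R 4.3.3, using TMM scaling, filterByExpr (minimum count 10, minimum total 15) and the quasi-likelihood test, adjusted over all genes (Benjamini-Hochberg); a gene was called at an adjusted p below 0.05. The interaction joined the 3-month and TAC tables in 1 fit. CPM are TMM-scaled, and SE is the log2 fold change divided by the root of F. Tested on simulated data for each comparison, the fit recovered all 200 genes changed by 2 on the log2 scale and called 5 to 10 unchanged genes. No member changed by as much, so this does not show whether smaller changes would be found. Isoform ratios (prior count 2) used an exact two-sided permutation test over 70 labellings. Alternatives were DESeq2 1.42.0, other scalings, filters and thresholds, leaving out each library and a replicate block. No pair of libraries agreed within sampling noise (lowest chi-square per degree of freedom 2.16). Labels do not say whether libraries came from separate animals or cultures, so p-values measure the spread between libraries. Depth and 4 libraries per group gave a median SE over all genes of 0.134 after TAC and 0.0807 in NRVMs.

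Members and lists were chosen with earlier results of these data known. Named were, per comparison and complex, the 3 members with the smallest p and the highest and lowest fold change, the isoform pairs, the complex I core, untested members and up to 3 genes of a list with the smallest p; Ndufb10 after TAC and Cox7a2l in NRVMs were named after their values were seen. One result is not reported here. Coordinates are from GENCODE M21 on GRCm38, which held all 90 mouse genes; 4 are processed pseudogenes, and 14 rows marked -ps were left out. In the rat table Ndufv3, Ndufa10l1, Cox6b1 and Uqcrb have 2 rows each, and in the mouse tables Atp5o has 2 rows.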

Additional observations from a re-analysis of the deposited data

Results flagged for a closer look

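Of 136 groups of 4 libraries tested, 12 held 1 library whose gap to the nearest other exceeded Dixon's critical value as a share of the range; chance gives about 1 in 20. In cKO_TAC, library 4 was the highest for summed CPM of complex V at 11067 (next 8815), Ndufs4 at 108 CPM (next 83.5), Atp5j at 410 CPM (next 328) and the log2 ratio of Cox6a2 to Cox6a1 at 4.70 (next 4.48). In Ctrl_TAC, library 3 was the lowest for summed CPM of complex II at 1310 (next 1537) and for Sdha at 411 CPM (next 547), and library 4 was the highest for Sdhb at 589 CPM (next 565) and Uqcrc1 at 929 CPM (next 888). In KO_1month, library 4 was the highest for summed CPM of complex IV at 5965 (next 5375) and of complex V at 9190 (next 8542). In Ctrl_1month, library 1 had the lowest log2 ratio of Cox7a1 to Cox7a2 at -0.31 (next 0.90). In AdMettl5_PE, library 1 had the lowest log2 ratio of Cox4i2 to Cox4i1 at -6.96 (next -6.53), at 3.78 CPM of Cox4i2.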

How the results depend on the processing

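The count of members lower after TAC, 46, became 14 without the filter on low counts, beside 1.37% of all 30075 genes. It became 76 at an unadjusted p below 0.05, and 1 (Cox7a1) when the adjusted p and a log2 fold change over 1 were asked for. Shares over all genes at these thresholds are not given here. The count was 1 to 75 when 1 library was left out, beside 1.13% to 11.6% of all genes. In NRVMs, 78 became 1 (Cox6a2) with that fold, also without a share over all genes. With library totals alone 1 rat member was called higher, beside 39.0% of all 15041 genes. Without the filter more genes were tested. At an unadjusted p below 0.05, 2 members were lower at 1 month, 1 at 3 months and 19 in the interaction. The shares of all genes lower at that p were 2.46%, 3.43% and 5.17%. Leaving out 1 library gave 0 to 8 members in the interaction, beside 0% to 1.77% of all genes. DESeq2 size factors, leaving out genes of the mitochondrial genome, a minimum of 10 counts in every sample and the DESeq2 test kept every count within 1.5 times. Isoform ratios under leaving out 1 library ranged, at 1 month, from -0.12 to 0.00996 for Cox6a2 to Cox6a1, from -0.26 to 0.22 for Cox7a1 to Cox7a2, from -0.14 to 0.13 for Cox8b to Cox8a, from -0.0949 to 0.26 for Cox4i2 to Cox4i1 and from 0.13 to 0.43 for Ndufa4l2 to Ndufa4, and in NRVMs from -0.0953 to 0.0862 for Cox8b to Cox8a. After TAC that ratio ranged from -0.59 to -0.44, with exact permutation p up to 0.0571, and Ndufa4l2 to Ndufa4 from 0.25 to 0.46. The ratio of Cox6a2 to Cox6a1 ranged from -0.28 to -0.23 at 3 months, from -0.58 to -0.45 after TAC and from -1.08 to -1.03 in NRVMs, and that of Cox7a1 to Cox7a2 from -0.45 to -0.37 and from -0.76 to -0.60 at 3 months and after TAC; their p stayed at 0.0286 (exact permutation test), the smallest that these group sizes give, which says nothing of stability. With a prior count of 0.5 no ratio changed sign. Of 280 values of the 20 genes named for TAC, 113 lost their call, in 19 genes, and of 378 in NRVMs, 13 lost it, in 3 genes; none changed sign. The cause was not tested.

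At 1 month same-numbered libraries had correlations of their deviations of 0.24, 0.12, -0.11 and 0.08, so the numbers were not taken to pair them; with the replicate block 0 members were called, as without it. No paired analysis was possible because, in the other tables, the control columns carry no replicate number of the labels.

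Depth limits Cox7b2, Cox8c, Ndufa4l2 and Cox7a1 in NRVMs. In hearts it limits Cox7b2, Cox8c and the Atp5o row ENSMUSG00000116933, which was at or near 0 counts and not tested.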

Other observations

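Per kilobase of exon, the most abundant member of each complex in Ctrl_TAC was Ndufb9 in complex I (505 CPM per kilobase), Sdhb in complex II (255), Uqcr11 in complex III (521), Cox6a2 in complex IV (2969) and Atp5b in complex V (782). The length used joins the exons of all annotated transcripts of a gene. It can exceed the length of the expressed mRNA, so these ranks depend on the annotation. The muscle isoforms exceeded the ubiquitous ones in these adult hearts, with Cox8b at 1244 against 161 for Cox8a and Cox6a2 at 2969 against 86.7 for Cox6a1. In NRVMs the log2 ratio of CPM of Cox8b to Cox8a was -3.50 ± 0.231 (SD, n = 4) in AdGFP_PE, against 2.16 ± 0.124 in Ctrl_TAC; the species, age and annotation differ between these groups.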
